A study of Homo sapiens with 6 samples.

Results

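The lysyl oxidase family was examined in RNA-Seq data of MCF10A, a human cell line derived from nonmalignant breast epithelium. Its 5 members, LOX, LOXL1, LOXL2, LOXL3 and LOXL4, were found by gene name among the 58735 genes of the deposited read count table. The family was selected on the difference between the groups, which was known beforehand from these data. Therefore the members' levels and fold changes in this comparison are given as a description, without a test of their own. The 3 siControl libraries came from cells labelled WT that received a nontargeting siRNA pool, and the 3 siDAB2IP libraries from cells that received siRNA against DAB2IP, a RAS GTPase-activating protein. The siDAB2IP cells carry the genotype label DAB2IP knockdown. RNA of both groups was taken 48 hours after transfection, and all cells grew in the same medium with horse serum, insulin, epidermal growth factor, cholera toxin and hydrocortisone. The labels do not say whether replicates were separate cultures, so the p-values measure only the spread between these libraries. One siRNA product was used, so its effects on other transcripts and those of DAB2IP loss cannot be told apart.

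Lysyl oxidases are secreted, copper-dependent amine oxidases. They convert lysine residues of collagens and elastin to reactive aldehydes, from which the covalent cross-links of the extracellular matrix form. All members share a conserved catalytic domain with a lysine-derived quinone cofactor. LOX and LOXL1 carry a propeptide that is cleaved outside the cell, whereas LOXL2, LOXL3 and LOXL4 carry scavenger receptor domains instead. In breast tissue the family is best known for stiffening of the matrix around tumors, and LOX is known as a gene induced by hypoxia.

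LOX (ENSG00000113083), the founding member, lies on the minus strand of chromosome 5 from 122063195 to 122078360 (GRCh38). Its promoter is shown because LOX is the member that fell and because hypoxia-inducible factors act on it through the core sequence ACGTG. In the RefSeq promoter table (GRCh38.p14), windows run from 250 bases before to 50 bases after the start. The outermost windows of LOX, LOXL1, LOXL3 and LOXL4 were searched on both strands. Those of LOXL1 and LOXL3 lie wholly inside the GENCODE gene spans, so the search says nothing of the sequence upstream of their GENCODE starts. LOXL2 was left out of this search, so nothing is said here of its promoter. The LOX window held 4 matches of ACGTG, which began 185, 116, 98 and 42 bases before the start, and the windows of LOXL1, LOXL3 and LOXL4 held 0. Only the letters ACGTG were searched, and other sequences to which hypoxia-inducible factors bind were not. Of the 27305 promoters searched in the same way, 21.6% held at least 1 match and 0.886% held 4 or more, where overlapping matches on opposite strands were counted apart. The stretch that lies upstream of the LOX starts in both RefSeq and GENCODE covers chr5:122078361-122078509, minus strand. The matches 98 and 42 bases before the RefSeq start, which lie inside the GENCODE gene, follow with 10 bases on each side. All are written 5′ to 3′, with the core (read as CACGT on the opposite strand) in capitals.
LOX upstream stretch: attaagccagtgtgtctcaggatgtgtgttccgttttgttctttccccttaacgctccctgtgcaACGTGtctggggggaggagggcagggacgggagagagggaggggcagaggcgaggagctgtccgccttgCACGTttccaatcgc
LOX site 98 bases before the start: caatcgcattACGTGaacaaatagc
LOX site 42 bases before the start: aactttgcaaACGTGccagaaagtt
The consensus motif of NF-κB, which 10.8% of promoters held, was not found in the windows of LOX, LOXL1 and LOXL3 and was found at 1 place in that of LOXL4. The AP-1 motif TGANTCA, which 7.72% of promoters held, was found in 0 of the 4 windows. A match describes letters in the window and does not show that a factor binds there.

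Each library held between 16353783 and 21916062 counts. Levels are given as CPM (counts scaled to the library total) or as FPKM (scaled to gene length as well). A gene with a count of 0 can still lie at up to 0.139 to 0.187 CPM, depending on the library, and this limit includes no error other than that of counting. The 15430 genes that passed the filter on low counts were tested with edgeR. DAB2IP was lower in the siDAB2IP libraries (22.4 to 27.5 CPM) than in the siControl libraries (77.4 to 103 CPM). The basal epithelial markers were expressed (8 of 8 at a mean of at least 1 FPKM), and so were the general epithelial markers (6 of 6). Of the fibroblast markers 3 of 9 reached 1 FPKM (COL1A1, FAP and DCN, with DCN highest at a mean of 13.3 FPKM). COL1A2, COL3A1, PDGFRA, LUM and THY1 were at or near 0 in both groups. Of the endothelial markers 1 of 5 reached this level (KDR), as did 1 of 5 immune markers (CD14), and CD3E had 0 counts in every library.

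With DAB2IP knockdown, LOX fell and LOXL2 rose, and LOXL2 took the place of LOX as the most abundant family transcript. LOX was at 51.2, 50.6 and 47.4 FPKM in siControl replicates 1, 2 and 3, and at 23.0, 17.1 and 13.6 FPKM in siDAB2IP replicates 1, 2 and 3. The highest siDAB2IP library was thus below the lowest siControl library, and the siDAB2IP libraries spread more widely. The group means were 49.7 ± 2.02 and 17.9 ± 4.74 FPKM (SD, n = 3 in each group). From the counts, LOX was 2.78-fold lower (−1.47 on the log2 scale, standard error 0.17), with 4525 to 6081 counts behind each control value and 1317 to 2279 behind each knockdown value. Of the genes tested, 157 had a lower log2 fold change than LOX. In bulk RNA, fewer cells that express LOX and less LOX RNA per cell cannot be told apart.

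LOXL2 (ENSG00000134013), which oxidizes collagen IV of basement membranes and is also known to act on the EMT factor SNAI1, lies on the minus strand of chromosome 8 from 23297189 to 23425328. It was at 24.5, 22.9 and 18.3 FPKM in siControl replicates 1, 2 and 3, and at 35.9, 41.1 and 39.2 FPKM in siDAB2IP replicates 1, 2 and 3. Every siDAB2IP library was above every siControl library. On the CPM scale the means were 126 ± 18.6 and 224 ± 15.4 (SD, n = 3 libraries per group). LOXL2 was thus 1.77-fold higher, and its log2 fold change was 0.82 with a standard error of 0.12. The values rested on 1796 to 2833 counts in the siControl libraries and 3669 to 4285 in the siDAB2IP libraries, and 604 of the genes tested had a higher log2 fold change.

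LOXL1 (ENSG00000129038), which is bound to elastic fibers and needed for their renewal, was expressed at a far lower level. It lies on the plus strand of chromosome 15 from 73925989 to 73952137. LOXL1 was at 0.729, 0.571 and 0.639 FPKM in siControl replicates 1, 2 and 3 and at 0.968, 1.28 and 0.913 FPKM in siDAB2IP replicates 1, 2 and 3. Its groups did not overlap, with siDAB2IP replicate 2 the highest of all. The log2 fold change was 0.71, with a standard error of 0.24, from 40 to 45 counts per control library and 58 to 85 per knockdown library.

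LOXL3 (ENSG00000115318), which acts in the matrix of developing cartilage and muscle attachments, lies on the minus strand of chromosome 2 from 74532414 to 74555690. It was at 0.353, 0.508 and 0.440 FPKM in siControl replicates 1, 2 and 3 and at 0.461, 0.389 and 0.512 FPKM in siDAB2IP replicates 1, 2 and 3. These groups overlapped, and the log2 fold change of 0.06 (standard error 0.27) was smaller than its error. With 25 to 48 counts per library, changes well above this error could also be missed. LOXL1, with 40 to 85 counts per library, had a standard error of 0.24, which was nearly as large. LOXL4 (ENSG00000138131), on the minus strand of chromosome 10 from 98247690 to 98268250, had 0, 3 and 2 counts in siControl replicates 1, 2 and 3 and 2, 5 and 1 counts in siDAB2IP replicates 1, 2 and 3. It did not pass the filter on low counts and was not tested, and its count of 0 in siControl replicate 1 allows up to 0.187 CPM. Its promoter window was 85.3% G and C, higher than in 99.8% of the promoters, against 58.0% for LOX and a median of 58.3%.

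**Figure D1:**
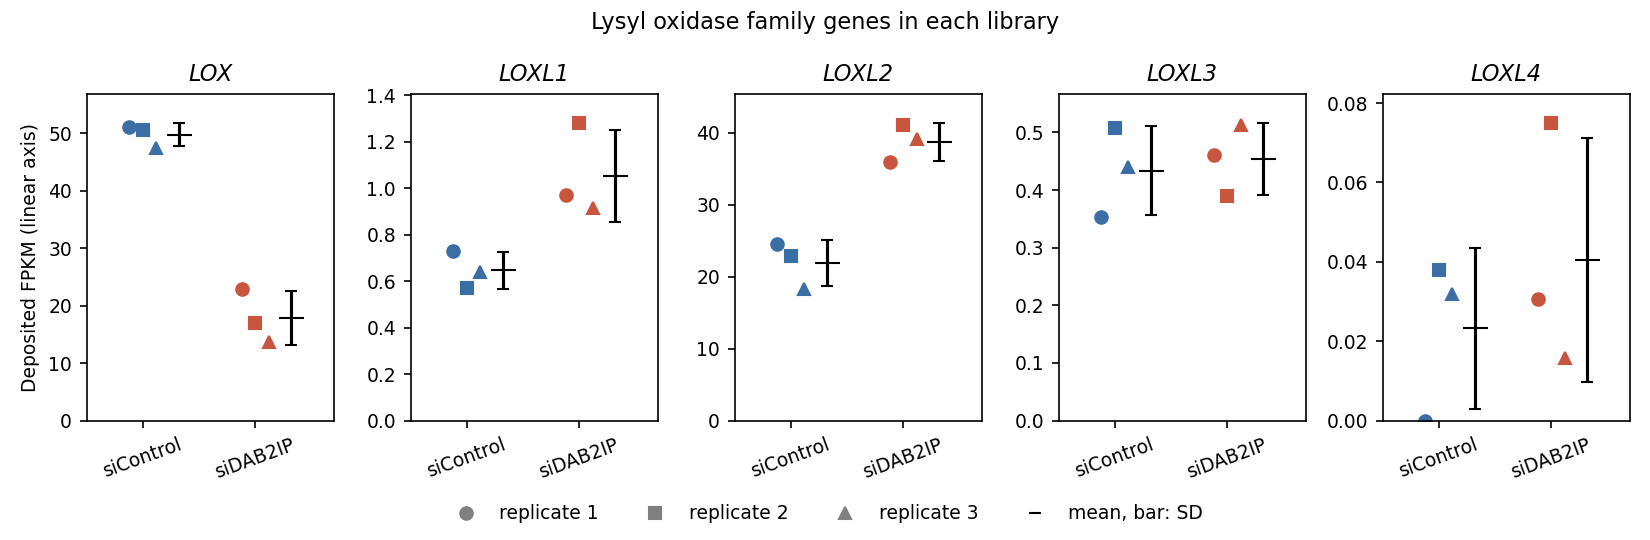
Deposited FPKM of the 5 lysyl oxidase family genes (1 panel each, linear axes from 0) in the 3 siControl (blue) and 3 siDAB2IP (red) libraries, with marker shapes for replicate numbers and black lines for the mean and SD. LOX lies lower in every siDAB2IP library (13.6 to 23.0 against 47.4 to 51.2 FPKM), LOXL2 and LOXL1 lie higher, LOXL3 overlaps, and LOXL4 reaches at most 0.0749 FPKM.

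Genes with an adjusted p under 0.05 over all genes tested were called. Of the 4 members that passed the filter, 1 was called higher (LOXL2) and 1 lower (LOX), where 6.55% of all genes tested were called higher and 7.65% lower. In 3 of the 4 the libraries of the groups were fully separated, higher for LOXL1 and LOXL2 (17.6% of all genes tested) and lower for LOX (18.3%). Since the family was chosen on this comparison, nothing is read from these counts. The order of levels per length in the siControl libraries was LOX, LOXL2, LOXL1, LOXL3 and LOXL4, and neighbours in this order did not overlap. In the siDAB2IP libraries LOXL2 and LOX changed places and the rest of the order was kept. In the siControl libraries LOXL1 and LOXL3 were the closest neighbours, and in siControl replicate 2 they had 45 and 48 counts, so that their order there rests on the length of the gene models. Among the genes tested, 4.52% had a higher mean FPKM than LOX in the siControl libraries, 11.8% than LOXL2, 84.1% than LOXL1 and 88.8% than LOXL3.

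LOX and LOXL2 together made up at least 97.1% of the family's summed FPKM in every library, and their balance turned over. LOX was 66.6%, 67.8% and 71.0% of the sum in siControl replicates 1, 2 and 3, and 38.0%, 28.5% and 25.1% in siDAB2IP replicates 1, 2 and 3. LOXL2 went the other way, from 30.0 ± 2.37% to 66.8 ± 6.55% (SD, n = 3 in each group). There were 2.08, 2.21 and 2.59 LOX FPKM per LOXL2 FPKM in siControl replicates 1, 2 and 3, and 0.639, 0.415 and 0.347 in siDAB2IP replicates 1, 2 and 3. This ratio is taken within a library, so no scaling between libraries enters it. The sum itself was 72.7 ± 5.25 FPKM in the siControl and 58.2 ± 3.42 FPKM in the siDAB2IP libraries (SD, n = 3 in each group), and these did not overlap (66.8 to 76.8 against 54.2 to 60.4 FPKM). The sum thus differed less between the groups than either LOX or LOXL2 alone.

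**Figure D2:**
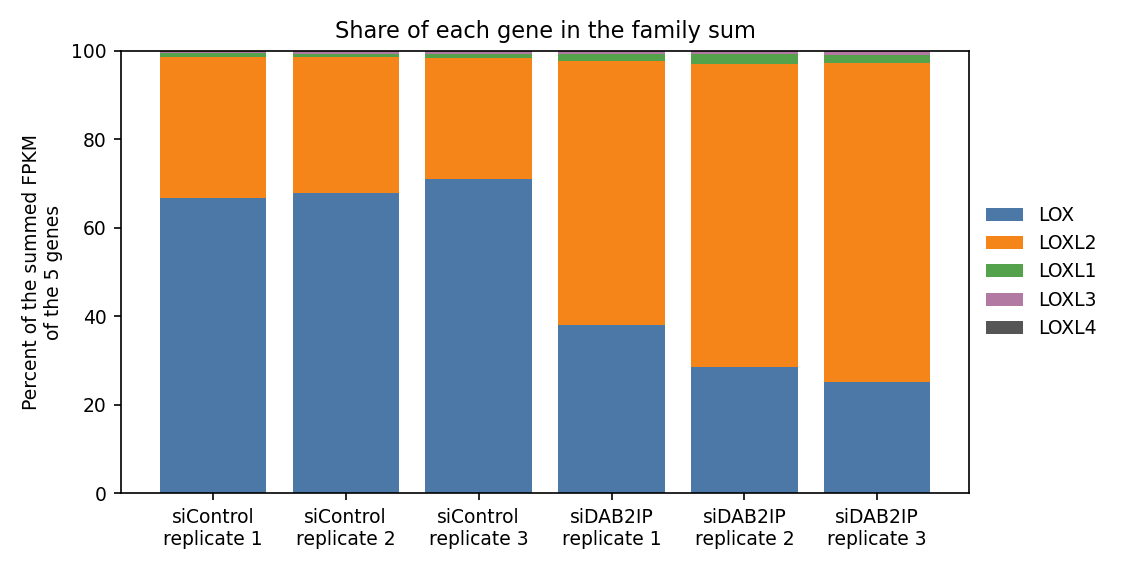
Percent of the summed FPKM of the 5 family genes that each gene held, with 1 stacked bar per library. LOX (blue) holds 66.6% to 71.0% in the siControl libraries and 25.1% to 38.0% in the siDAB2IP libraries, and LOXL2 (orange) holds most of the rest.

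The size of the changes varied between the replicate numbers. LOX was 2.23-fold lower in siDAB2IP replicate 1 than in siControl replicate 1, 2.95-fold lower in replicate 2 and 3.48-fold lower in replicate 3. LOXL2 was 1.46-fold, 1.80-fold and 2.15-fold higher in the same pairs, so replicate 3 had the largest difference of both. LOXL1 differed most in replicate 2 (2.25-fold higher, against 1.33-fold and 1.43-fold), and LOXL3 was lower in replicate 2 and higher in replicates 1 and 3. Without siDAB2IP replicate 3 the log2 fold change of LOX was −1.31, and without siDAB2IP replicate 1 it was −1.69. Over 14 alternative fits the log2 fold change of LOXL2 lay between 0.70 and 0.89.

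**Figure D3:**
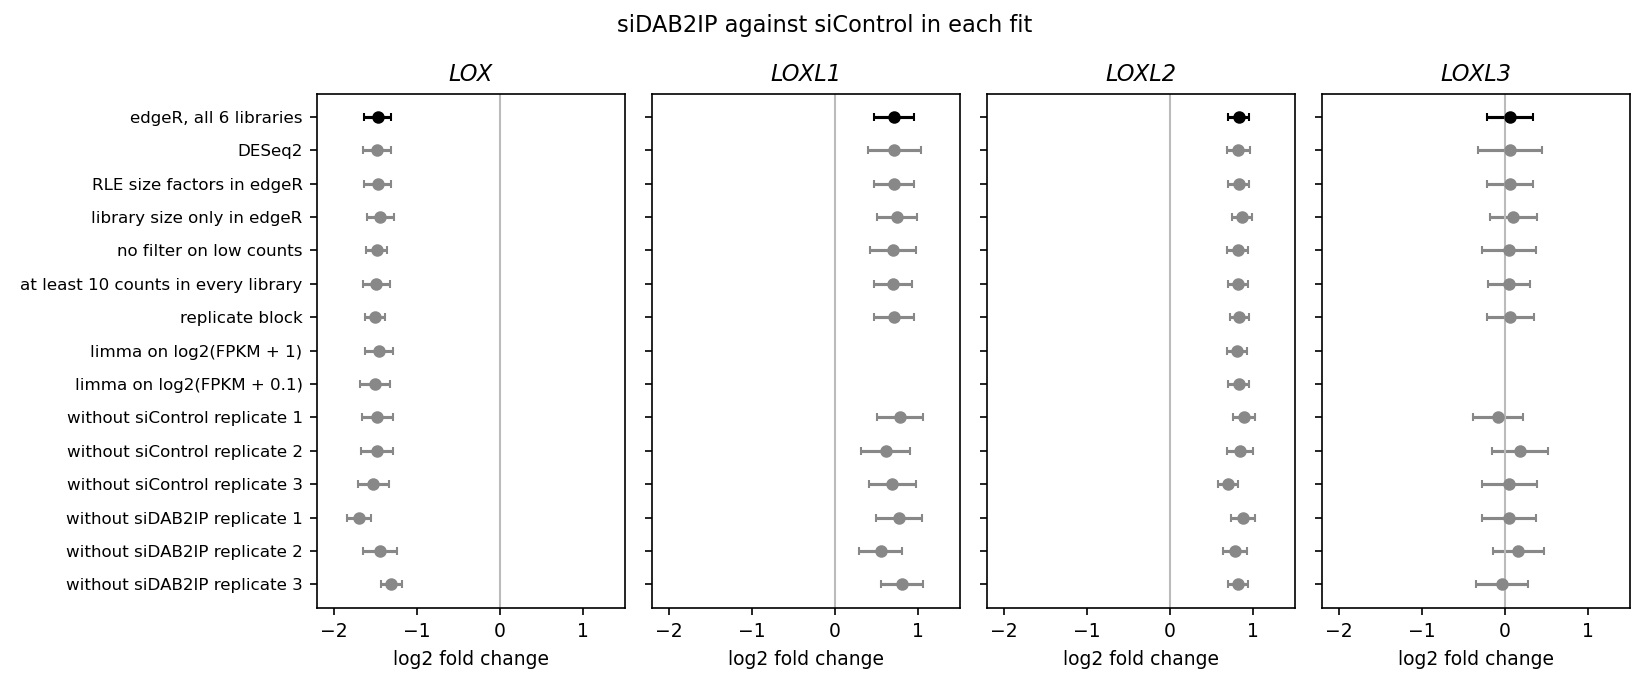
Log2 fold change of 4 family genes, siDAB2IP against siControl, with bars of 1 standard error, in the reported fit (black) and in each alternative (grey); a missing point means that the gene did not pass that fit's filter. LOX stays between −1.69 and −1.31 and LOXL2 between 0.70 and 0.89, and LOXL3 lies on both sides of 0.

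Each member overlaps another gene, and whether counting used the strand is not stated in the sources used here. In GENCODE release 29, 138 of the 5547 exon bases of LOX (2.49%) are shared with SRFBP1 on the opposite strand. SRFBP1 had 200 to 294 counts per library and did not pass the threshold (adjusted p = 0.78 from edgeR). LOXL2 shares 120 of 5707 exon bases with ENTPD4 on the same strand, and ENTPD4 did not pass (0.11 on the log2 scale, edgeR adjusted p = 0.537). It shares a further 178 with AC090197.1, which had 4 to 20 counts per library. LOXL1 shares 335 exon bases (9.21%) with its antisense RNA LOXL1-AS1, which had 18 to 31 counts per library and did not pass (−0.16 on the log2 scale, edgeR adjusted p = 0.775). LOXL3 is the most exposed member, since 625 of its 4363 exon bases (14.3%) are shared with HTRA2, a mitochondrial protease gene, and 216 with DOK1. HTRA2 had 363 to 674 counts per library and rose by 0.57 on the log2 scale (edgeR adjusted p = 0.046), so the LOXL3 counts are uncertain. AL139241.1, which overlaps LOXL4, had 0 counts in every library.

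Genes that work with lysyl oxidases were read from 6 lists with 83 genes, of which 72 were tested. Of these, 6 rose (8.33%) and 7 fell (9.72%), near the 6.55% and 7.65% of all genes tested, and the median log2 fold change of 0.05 was near the 0.01 of all genes. With the replicate number as a block, 14 of these 72 rose and 9 fell, where 21.0% of all genes tested were called in either direction. The share of all genes by direction was not taken for that fit. The likeness to all genes is therefore stated for the reported fit only. FBN1, THBS1, FN1, ATP7A, PLOD3, FKBP10, EPAS1 and TGFB3 were called higher with the block but not in the reported fit. FBLN5 and TGFB1 were called lower in the same way. Without siControl replicate 2 it was 3 and 3, where 4.56% of all genes were called. Among the substrates, 1 of 9 tested genes rose and 2 fell. COL1A1, a chain of fibrillar collagen I, rose from 1.54 ± 0.126 to 2.65 ± 0.545 FPKM (SD, n = 3; log2 fold change 0.78, adjusted p = 0.0129 from edgeR), while its partner chain COL1A2 was at or below 0.01 FPKM on average in both groups and was not tested. The basement membrane chains COL4A5 and COL4A1 fell by 0.47 and 0.78 on the log2 scale (adjusted p = 0.0173 and 0.0428 from edgeR). COL4A5 had the highest level of the list, at 43.3 ± 2.67 FPKM in the siControl and 31.1 ± 1.92 FPKM in the siDAB2IP libraries (SD, n = 3). ELN, which encodes elastin, did not pass the filter.

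Of the proteases and scaffolds that process or position lysyl oxidases, 1 of 16 rose and 1 fell (6.25% each). Of all genes tested 6.55% rose and 7.65% fell. ADAMTS14, a procollagen N-proteinase, rose at a low level, from 0.214 ± 0.132 to 0.566 ± 0.107 FPKM (SD, n = 3; adjusted p = 0.045 from edgeR). LTBP4, which binds latent TGF-β and elastic fiber proteins, fell by 0.55 on the log2 scale (adjusted p = 0.0154 from edgeR). BMP1, the main protease that removes the LOX propeptide, was at 42.8 ± 1.98 and 51.9 ± 9.96 FPKM (SD, n = 3) and did not pass the threshold (adjusted p = 0.204 from edgeR). FBLN1, a matrix scaffold and the most abundant gene of the list, was at 94.1 ± 4.58 and 83.8 ± 1.22 FPKM (SD, n = 3; adjusted p = 0.322 from edgeR). FN1, the fibronectin gene, differed so much between libraries of a group (48.4 ± 27.8 and 69.2 ± 46.4 FPKM, SD, n = 3) that it passed with the replicate block (adjusted p = 0.0146 from edgeR) but not without it (adjusted p = 0.494).

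Of the copper genes 1 of 6 rose (16.7%, against 6.55% of all genes tested). ATOX1, the chaperone that hands copper to the secretory pathway, rose from 3.33 ± 0.497 to 6.10 ± 1.02 FPKM (SD, n = 3), which was 0.87 on the log2 scale (edgeR adjusted p = 0.00804). ATP7A, the pump that loads copper onto secreted enzymes, had a log2 fold change of 0.46 and passed with the replicate block (adjusted p = 0.0277 from edgeR) but not without it (adjusted p = 0.0662). SLC31A1, the copper importer and the most abundant of the list, did not pass (adjusted p = 0.307 from edgeR). Of the enzymes that modify and fold collagen inside the cell, 2 of 17 rose (11.8%) and 0 fell. PLOD1, a lysyl hydroxylase of collagen, rose from 65.6 ± 2.88 to 102 ± 3.41 FPKM (SD, n = 3), which was 0.64 on the log2 scale (edgeR adjusted p = 0.00421). FKBP14, a collagen chaperone, rose by 0.44 on the log2 scale (adjusted p = 0.0372 from edgeR), a call that 5 of the 6 fits without a library lost. P4HB, the most abundant gene of this list, was at 132 ± 7.53 and 110 ± 6.24 FPKM (SD, n = 3; adjusted p = 0.139 from edgeR). The other copper amine oxidases AOC1, AOC2 and AOC3 did not pass, and AOC2, the highest, was at 0.804 ± 0.280 and 1.27 ± 0.204 FPKM (SD, n = 3).

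The list of regulators holds HIF and TGF-β pathway genes, EMT factors and IRF1. Of its 21 genes 1 rose (4.76%) and 4 fell (19.0%), against 6.55% and 7.65% of all genes tested. A share of so few genes is not read as a result. The ligand TGFB2 rose from 1.57 ± 0.418 to 4.53 ± 1.64 FPKM (SD, n = 3; log2 fold change 1.53, adjusted p = 0.00631 from edgeR). The receptor TGFBR1 fell from 9.60 ± 1.98 to 4.16 ± 1.03 FPKM (SD, n = 3; log2 fold change −1.20, adjusted p = 0.00514 from edgeR), and the signal transducer SMAD2 fell by 0.42 on the log2 scale (adjusted p = 0.0168 from edgeR). TGFBR2, the most abundant of the list, was at 133 ± 22.2 and 92.7 ± 24.3 FPKM (SD, n = 3; adjusted p = 0.11 from edgeR). The EMT factor TWIST1 fell by 0.74 (adjusted p = 0.00372 from edgeR) and the interferon factor IRF1 by 0.71 (adjusted p = 0.0264 from edgeR), both on the log2 scale. HIF1A, an oxygen-regulated subunit of HIF, was at 43.3 ± 3.04 and 45.6 ± 3.66 FPKM (SD, n = 3, adjusted p = 0.678 from edgeR). EPAS1, another such subunit, was at 23.0 ± 0.498 and 28.1 ± 0.833 FPKM (SD, n = 3). It passed with the replicate block (adjusted p = 0.0407 from edgeR) but not without it (adjusted p = 0.0564). ATOX1, PLOD1, TGFB2, TGFBR1 and TWIST1 were called in all 6 fits that left out a library. COL1A1, COL4A1, COL4A5, ADAMTS14, LTBP4, SMAD2 and IRF1 each lost the call in 1 to 4 of them.

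**Figure D4:**
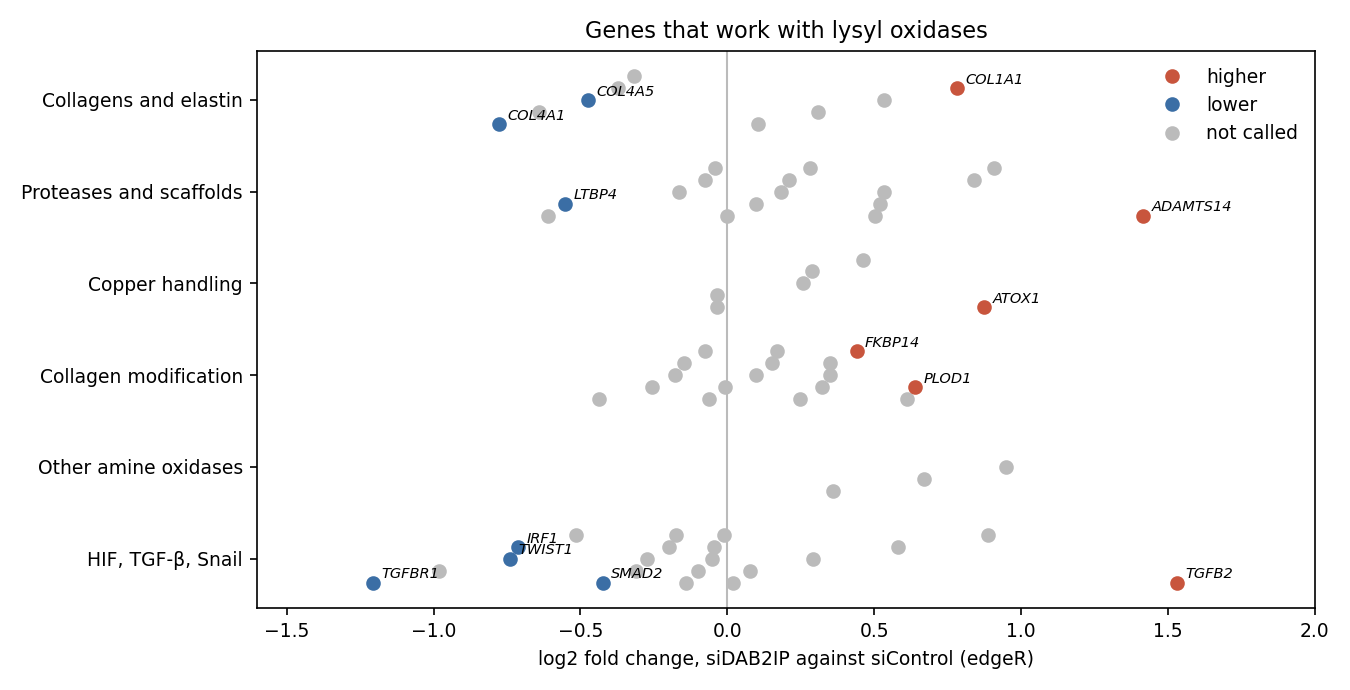
Log2 fold change (siDAB2IP against siControl, edgeR) of the 72 tested genes that work with lysyl oxidases, 1 row per list with points spread vertically for legibility; red genes were called higher, blue genes lower and grey genes were not called. The 6 called higher and 7 called lower are named, and 3 of them (ADAMTS14, TGFB2 and TGFBR1) changed by more than 1 on this scale.

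The genes whose log2 CPM followed each member most closely over the 6 libraries were taken as a description. For LOX these were WTAP, VNN2 and CCDC47 (Pearson r of 0.998 each), and for LOXL2 they were UBE2J2 (0.999), AC008105.3 (0.996) and EGF (0.995). VARS, WWTR1 and LINC01719 were closest to LOXL1 (0.996, 0.995 and 0.989), and PPT2-EGFL8 and AC010326.3 to LOXL3 (0.995 and 0.971). The 6 points share their libraries and form a pair of groups, so that a gene with a like difference between the groups reaches a high r. Sizes of change differed among these genes, with −3.07 for VNN2 and −0.82 for WTAP on the log2 scale. EGF, which encodes a ligand that the culture medium also supplied, went from 0.165 to 1.26 CPM on average. Its siControl mean lies within the 0.139 to 0.187 CPM that a count of 0 allows. The size of this change and the r of EGF with LOXL2 are therefore uncertain.

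Markers of the basal epithelial state did not move together. KRT5 (816 to 415 FPKM on average), KRT14 (950 to 332 FPKM) and KRT17 were called lower and LAMB3 was called higher, while TP63, CDH3, ITGB4 and EGFR were not called (−0.57, −0.22, 0.12 and 0.03 on the log2 scale). The summed level of the 8 basal epithelial markers was 2344 to 2918 FPKM in the siControl and 1501 to 1866 FPKM in the siDAB2IP libraries. The sum of the 6 general epithelial markers was 370 to 385 FPKM and 277 to 360 FPKM. Of these only DSP was called (161 to 86.9 FPKM on average, lower). CDH1, EPCAM, KRT8, KRT18 and CLDN7 were not called (0.09, −0.40, 0.09, 0.02 and 0.50 on the log2 scale). The 9 fibroblast markers summed to 14.8 to 26.7 FPKM in the siControl and 16.1 to 22.2 FPKM in the siDAB2IP libraries, which overlapped. The 5 endothelial markers summed to 3.40 to 4.88 and 2.29 to 2.53 FPKM, and the 5 immune markers to 18.9 to 36.8 and 26.0 to 40.6 FPKM. The part of the epithelial markers in the LOX and LOXL2 differences was not tested.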

How the data were processed

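RNA-Seq of 6 MCF10A libraries was used. The authors deposited counts per gene and library, whole numbers without normalization, and FPKM values, in which each count is divided by the gene length and a library total that was 98.9% to 104.7% of the summed counts. The submitters' processing notes name hg38, STAR 2.6.1d, featureCounts 1.5.0-p3, DESeq2 1.20.0 and edgeR 3.24.3; the strand setting is not given in the sources used here. Gene models of the 5 members matched GENCODE release 29 in span and exon length.

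The counts were fitted with edgeR 4.0.16 (R 4.3.3), using filterByExpr by group, TMM scaling, glmQLFit and glmQLFTest, and Benjamini-Hochberg adjustment over 15430 genes (43305 were filtered out). Genes with an adjusted p under 0.05 were called. Standard errors were taken from the F statistic. Levels are deposited FPKM, and CPM are TMM-scaled. The members and lists were chosen with earlier results of these data known, and the promoter motifs were chosen in the same way. Genes were named by a rule. It took DAB2IP, members, overlapping genes, called list genes, the most abundant tested gene of each list and the 3 most correlated genes per member. BMP1, FN1, ATP7A, HIF1A, EPAS1, COL1A2 and ELN were named after their values were seen. The same holds for list genes called with the block but not in the reported fit. One gene that the rule names for LOXL3 is not reported here.

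Alternatives were DESeq2 1.42.0, RLE or library size scaling, 2 other filters, a stricter threshold, limma 3.58.1 on log2(FPKM + 1) and log2(FPKM + 0.1) for genes whose FPKM averaged 1 or more, each library left out, and the replicate number as a block. After subtraction of group means, same-numbered libraries correlated at 0.26, 0.15 and 0.25 and others at −0.28 to 0.02. The replicate numbers were therefore read as pairs. Reported calls come from the fit without these pairs, which entered the fits only as the alternative block. The fits were tested on simulated counts.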

Additional observations from a re-analysis of the deposited data

How the results depend on the processing

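The family was chosen on this comparison, so its values over the alternatives are a description. The log2 fold change of LOX ranged from −1.69 to −1.31 over 14 alternatives, that of LOXL2 from 0.70 to 0.89 over 14 and that of LOXL1 from 0.55 to 0.81 over 12. With the replicate block LOXL2 was at 0.83 and LOXL1 at 0.71. LOXL3 turned negative without siControl replicate 1 (−0.082) and without siDAB2IP replicate 3 (−0.036); without a library it lay between −0.082 and 0.18. LOXL1 and LOXL3 did not reach the FPKM minimum of the limma fits. Of all genes, 2192 were called (14.2%): 3233 with the replicate block, 1417 with limma on log2(FPKM + 0.1), 622 at an adjusted p under 0.01, and 723 (without siControl replicate 2) to 2524 (without siDAB2IP replicate 3) with a library left out. Genes working with lysyl oxidases called higher numbered 6 as reported, 11 with no filter on low counts, 14 with the replicate block, 3 at an adjusted p under 0.01 and 3 to 7 with a library left out. Those called lower numbered 7 as reported, 4 with limma on either FPKM scale, 2 at an adjusted p under 0.01 and 3 to 8 with a library left out. At an adjusted p under 0.05, the share of all genes called ran from 4.56% (without siControl replicate 2) to 21.0% (replicate block). It was 9.93% of 29567 genes with no filter on low counts. The list counts were not set against these shares fit by fit, so they are not read alone. Among the fits with a library left out, the lowest of the list counts came without siControl replicate 2. The causes were not tested. With TMM-scaled counts per kilobase in place of FPKM, each member's control level moved by less than 1 SD. Depth limits LOXL1, LOXL3 and LOXL4.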
